A study of Mus musculus with 8 samples.

Results

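Cell cycle and proliferation genes were followed in RNA of peritoneal macrophages (pMacs) taken from WT mice and from mice without CD1d (CD1d-KO). The set held 42 genes of S phase and mitosis, with D-type cyclins and 2 inhibitors of cyclin-dependent kinases (CDKs). They were chosen by name for their textbook roles, with earlier results of these data known. Each symbol was matched to its Ensembl gene ID in an annotation of the mouse genome build GRCm38, and 42 of 42 were found among the 48795 gene IDs of the files.

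The study asked how loss of CD1d, a molecule that presents lipids to T cells, changes macrophages, and sequenced polyadenylated RNA of their pMacs, 1 library per mouse, for 4 mice of each genotype. The controls were littermates, and mice in the study were 8 to 16 weeks old, with C57BL/6 as the WT strain. The study kept a CD1d-KO line made by crossing a floxed CD1d allele with PGK-Cre, which is active in all tissues, and the line B6.129S6-Del(3Cd1d2-Cd1d1)1Sbp/J, in which *Cd1d1* and *Cd1d2* are deleted. Which line gave these libraries, and whether the lavage cells were bead-enriched for F4/80 before RNA extraction, is not given in the sources used here. Replicates are numbered 1, 2, 3 and 5 for both genotypes, and values below are given in that order, WT before CD1d-KO.

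Between 13698864 and 19059432 expected counts were assigned to genes per library. Markers of the labelled cell type were present in the 8 libraries: *Adgre1*, which encodes F4/80, ranged from 318 to 467 TPM, a level per transcript length and library total, and *Gata6*, the transcription factor of large peritoneal macrophages, from 10.7 to 29 TPM. The deleted gene *Cd1d1* (ENSMUSG00000028076, chromosome 3, 86995834 to 86999441) had 68.2, 175, 96.1 and 141 normalized counts in WT pMacs and 60.7, 1.14, 0 and 1.10 in CD1d-KO pMacs. The library labelled CD1d-KO replicate 1 thus held *Cd1d1* transcripts near the lowest WT level, which goes against its label. Fold changes of the set, of the mitotic genes and of several single genes are also given without it or its pair. Other values include it unless stated.

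Cells that divide pass through a fixed order of phases, each with its own transcripts. D-type cyclins start the cycle, E2F factors and cyclin E open S phase, MCM helicases and enzymes that supply deoxynucleotides copy the genome, and cyclin B with CDK1 drives mitosis. Resident macrophages of the mouse peritoneum are long-lived and maintain their number largely through division of mature cells in the cavity, so only a minority of them is in cycle at any time. These are transcript levels in bulk RNA, which do not measure division, and in which more cycling cells and more RNA per cycling cell cannot be told apart.

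Genes of S phase and of mitosis are read from different promoter elements. Mitotic genes commonly carry CCAAT boxes and a cell cycle homology region (CHR) close to the start site, and S phase genes carry E2F sites. RefSeq promoter windows of GRCm38.p6, which span 250 bases before to 50 bases after a start site, were matched for 34 of the 42 genes (37 windows). Windows of 3 mitotic genes and 2 helicase genes are shown, because the levels of these gene groups moved apart between the libraries. Capitals mark the CHR (TTTGAA or TTCGAA) and the CCAAT box in the first 3, and E2F sites (TTTGGCGC, TTTCGCGC, TTTGCCGC or TTTCCCGC) in the last 2, on either strand. Overlapping E2F matches run together.
Plk1, chr7:122159185-122159484, + strand: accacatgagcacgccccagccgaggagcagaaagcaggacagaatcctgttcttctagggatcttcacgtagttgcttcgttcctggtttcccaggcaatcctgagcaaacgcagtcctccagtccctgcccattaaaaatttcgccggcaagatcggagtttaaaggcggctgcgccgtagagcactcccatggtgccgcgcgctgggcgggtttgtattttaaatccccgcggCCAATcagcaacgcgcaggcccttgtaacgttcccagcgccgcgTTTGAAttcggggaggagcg
Ccnb2, chr9:70421505-70421804, - strand: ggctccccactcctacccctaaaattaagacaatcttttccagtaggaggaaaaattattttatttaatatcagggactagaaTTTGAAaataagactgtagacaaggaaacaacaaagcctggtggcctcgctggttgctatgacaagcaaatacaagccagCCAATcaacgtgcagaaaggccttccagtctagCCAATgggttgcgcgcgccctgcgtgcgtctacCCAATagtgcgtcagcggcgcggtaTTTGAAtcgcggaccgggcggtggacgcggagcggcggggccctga
Cdc20, chr4:118437294-118437593, - strand: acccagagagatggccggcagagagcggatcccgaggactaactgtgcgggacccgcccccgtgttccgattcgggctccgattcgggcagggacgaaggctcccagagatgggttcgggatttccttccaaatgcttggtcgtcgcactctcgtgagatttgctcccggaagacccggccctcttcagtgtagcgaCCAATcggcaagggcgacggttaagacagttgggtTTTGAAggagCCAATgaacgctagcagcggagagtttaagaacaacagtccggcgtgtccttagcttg
Mcm3, chr1:20820263-20820562, - strand: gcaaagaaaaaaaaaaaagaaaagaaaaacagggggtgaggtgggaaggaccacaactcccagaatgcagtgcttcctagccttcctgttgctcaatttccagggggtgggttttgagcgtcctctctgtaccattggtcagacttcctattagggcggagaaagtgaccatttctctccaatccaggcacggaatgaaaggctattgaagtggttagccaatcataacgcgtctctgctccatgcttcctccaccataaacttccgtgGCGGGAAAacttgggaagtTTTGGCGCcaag
Mcm5, chr8:75109259-75109558, + strand: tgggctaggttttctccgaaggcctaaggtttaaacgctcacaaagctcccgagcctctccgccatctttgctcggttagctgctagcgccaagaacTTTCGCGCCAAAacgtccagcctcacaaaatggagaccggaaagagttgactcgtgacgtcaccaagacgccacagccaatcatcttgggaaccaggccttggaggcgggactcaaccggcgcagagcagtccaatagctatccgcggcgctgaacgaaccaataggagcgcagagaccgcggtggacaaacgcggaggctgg

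The CHR letters were present in 12 of 16 windows of mitotic genes (75%), in 2 of 11 windows of replication and deoxynucleotide genes (18.2%) and in 19.2% of all 32851 windows. In *Cdc20* the CHR lay 18 bases before the start site, with a CCAAT box 53 bases before it. CCAAT boxes were found in 14 of the 16 mitotic windows (87.5%) and 9 of the 11 replication windows (81.8%), against 37.4% of all windows. The E2F letters were in 4 of the 11 replication windows (36.4%), 1 of the 16 mitotic windows (6.25%) and 2.26% of all windows. A match describes the letters in the window and does not show a bound site.

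Of the set, 2 genes were transcribed at high level in WT pMacs and most others at low level. *Cdkn1a* (ENSMUSG00000023067), which encodes the CDK inhibitor p21, averaged 244 TPM, above 96.5% of the 13040 genes tested. *Pcna* (ENSMUSG00000027342), the sliding clamp of DNA polymerases, averaged 112 TPM, above 92.4% of them. Next came *Ccnd2* at 19.1 TPM, *Mcm6* at 17.3 TPM, *Ccnd3* at 15.9 TPM, *Cdkn1b* at 13.5 TPM and *Mcm3* at 13.3 TPM. The proliferation marker *Mki67* stood at 11.1 TPM, above 48.5% of the tested genes. Mitotic transcripts were scarce: in WT libraries the median over the 20 mitotic genes ran from 0.52 to 1.42 TPM. *Bub1*, *Cenpf* and *Kif11* were the lowest of the set, at 0.425, 0.41 and 0.512 TPM.

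**Figure D1:**
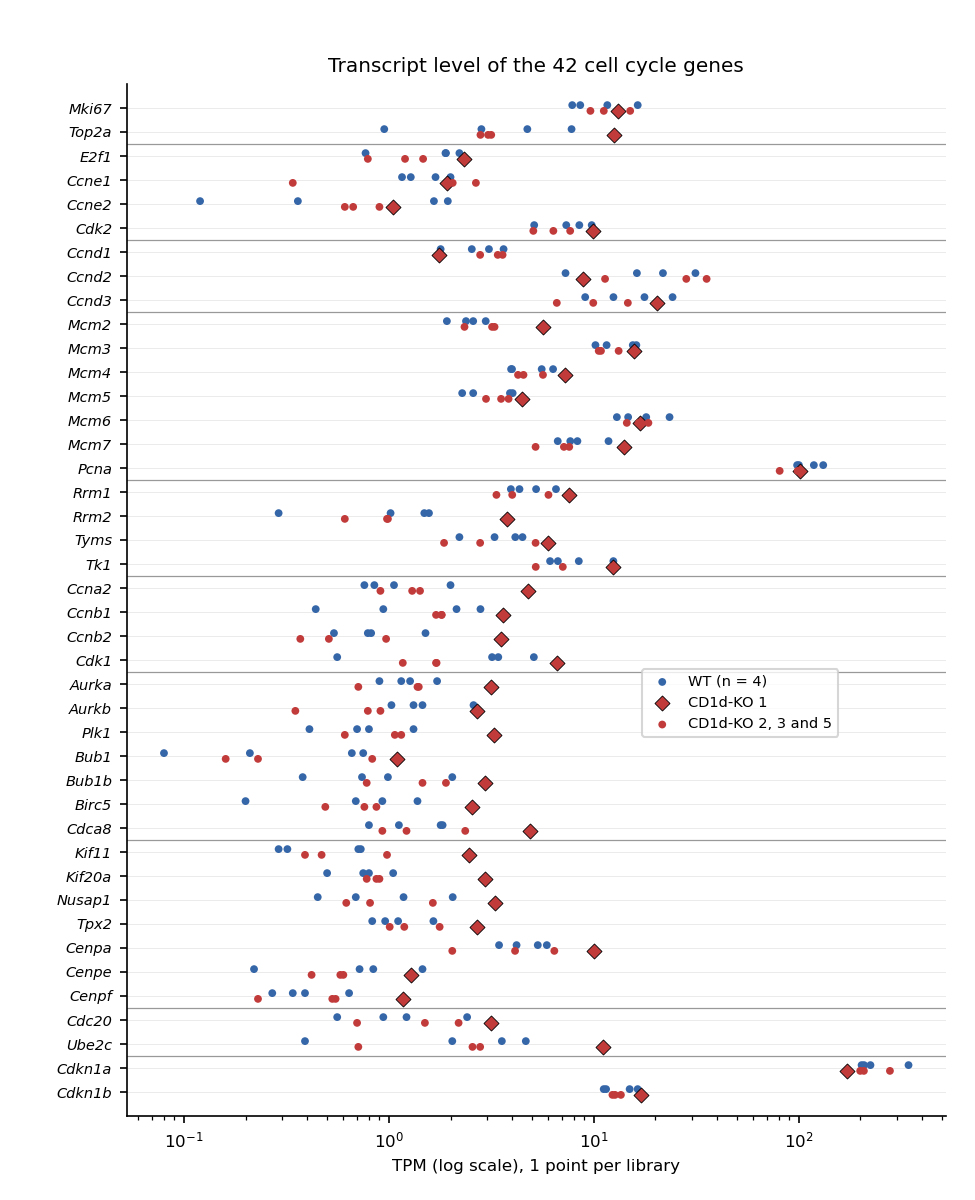
TPM (log axis) of each of the 42 genes in the 8 libraries, with WT in blue above and CD1d-KO in red below, and CD1d-KO replicate 1 as an outlined diamond. *Cdkn1a* and *Pcna* lie near 244 and 112 TPM in WT pMacs, and most mitotic genes lie below 3 TPM, with the diamond of CD1d-KO replicate 1 the rightmost point in 19 of the 20.

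Between the genotypes, 0 of the 40 genes of the set that could be tested passed the thresholds (adjusted p under 0.01 and fold change above 1.5, by edgeR's quasi-likelihood test on replicate number and genotype). Over all tested genes 0.0383% passed. The deleted gene *Cd1d1* did not pass in this fit either (log2 fold change -3.42, edgeR adjusted p = 0.233). Without replicate 1 its log2 fold change was -7.27 (edgeR adjusted p = 0.000685), and 0 genes of the set passed in that fit. At an unadjusted p under 0.05, 0 of the 40 were higher in CD1d-KO pMacs, where 7.35% of all genes were, and 1 of the 40 (*Pcna*) was lower, where 5.01% of all genes were. DESeq2 gave an adjusted p to 21 of the 42 genes and called 0 of them, with 0 higher and 1 lower (*Cdkn1a*) at an unadjusted p under 0.05. It called 1.02% of all genes to which it gave an adjusted p. *Bub1* and *Birc5* had too few counts to be tested in edgeR. The smallest adjusted p of any gene of the set over the fit and its 19 alternatives was 0.0833, for *Ccnd2* without replicate 2.

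No gene of the set separated the genotypes in all libraries. In 0 of the 40 tested genes were all CD1d-KO libraries above all WT libraries, and in 0 were all below, against 1.04% and 0.905% of all tested genes. The fitted log2 fold change (log2FC, CD1d-KO over WT) was positive for 32 and negative for 8 genes, with a median of 0.17 and a range from -0.24 to 1.08, where the median over all genes was 0.0047. Without replicate 1 it was positive for 13 and negative for 26 of 39 genes, with a median of -0.094. Standard errors were wide for the mitotic genes, between 0.37 for *Cenpa* and 0.96 for *Ube2c*, and narrower for abundant genes such as *Mcm3* (0.09). Changes of the size fitted for the mitotic genes could not be told from 0 with these mice.

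**Figure D2:**
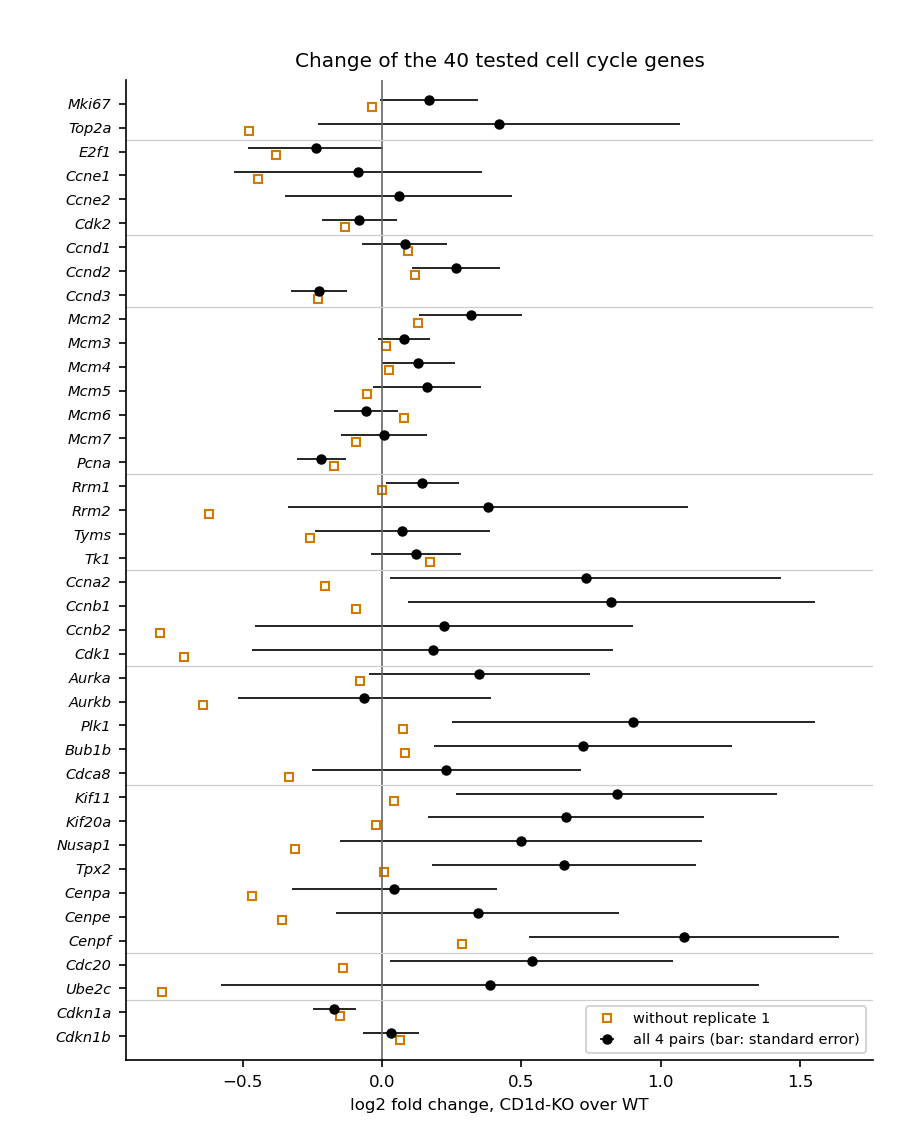
Log2 fold change of CD1d-KO over WT for the 40 tested genes from edgeR, as filled points with standard errors for all 4 pairs and as open squares without replicate 1. The mitotic genes in the lower part shift left when replicate 1 is left out, from a median of 0.52 to one of -0.17.

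A single library stood apart in the set. CD1d-KO replicate 1 held the highest level of 31 of the 42 genes (29 of the 40 tested), where it was the highest library for 12.0% of all tested genes. It exceeded 1.5 times the highest of the other 7 libraries in 17 of the 42 genes (15 of the 40 tested), against 0.836% of all tested genes. For the 20 mitotic genes (mitotic cyclins and CDK1, kinases and checkpoint, spindle and kinetochore, and anaphase-promoting complex) it was the highest library in 20 of 20. Its excess over the median of the other 7 libraries ran from 2.02-fold for *Cenpe* to 5.70-fold for *Bub1*, with a median of 2.98-fold. WT replicate 1, of the same number, was the lowest library for 22 of the 42 genes and for 14 of the 20 mitotic genes. Over all tested genes it was the lowest for 2275 of 13040. These counts describe libraries that were singled out after their values were seen.

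The summed normalized counts of the 20 mitotic genes were 238.5, 388, 591 and 714 in WT pMacs and 1419, 409, 528 and 484 in CD1d-KO pMacs. CD1d-KO replicate 1 lay 1.99-fold above the next library, WT replicate 5, and 5.95-fold above its partner, WT replicate 1, which was the lowest of the 8. The partners were also the deepest libraries of their groups, with 18631659 and 19059432 counts. The counting intervals (95%, exact Poisson, counting error only) were 1356 to 1485 for CD1d-KO replicate 1 and 661 to 770 for WT replicate 5. As group values the sums were 483 ± 211 (SD, n = 4) in WT and 710.1 ± 475 (SD, n = 4) in CD1d-KO pMacs, and 474 ± 60.2 (SD, n = 3) without CD1d-KO replicate 1. Without that library the difference between the groups was far smaller than the spread between WT mice. The pair medians of the mitotic log2 ratio were 2.62 in pair 1, 0.21 in pair 2, -0.32 in pair 3 and -0.48 in pair 5.

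The 11 genes that replicate DNA or supply deoxynucleotides showed the pattern more weakly. CD1d-KO replicate 1 was the highest library for 6 of the 11 and exceeded 1.5 times the next for 1, *Rrm2*. Over all tested genes these shares were 12.0% and 0.836%. For the 11 genes its level over the median of the other 7 libraries ran from 0.826-fold (*Pcna*) to 3.93-fold (*Rrm2*), with a median of 1.45-fold. Their summed normalized counts were 3171, 2906, 3008 and 3116 in WT and 3065, 2998, 2673 and 2896 in CD1d-KO pMacs. All 8 libraries lay within a narrow range, and CD1d-KO replicate 1 stood at 0.966 of the highest. The sums were 3050.2 ± 118 (SD, n = 4) and 2908 ± 171 (SD, n = 4), and *Pcna* supplied about as many counts as the other 10 genes together. Without *Pcna* the sums were 1599, 1409.8, 1303 and 1729 in WT and 1829, 1481, 1401 and 1618 in CD1d-KO pMacs, with CD1d-KO replicate 1 at 1.06 times the next library.

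**Figure D3:**
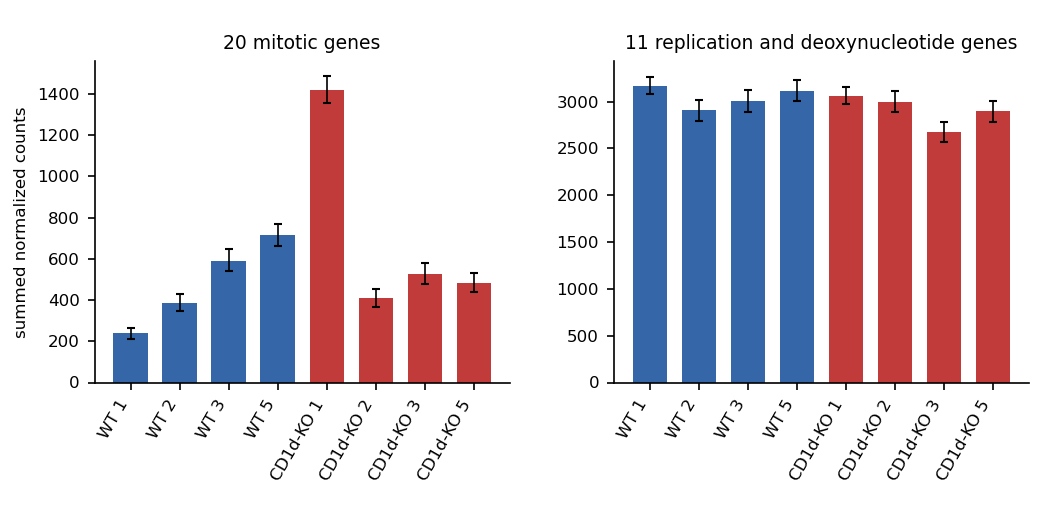
Summed normalized counts per library for the 20 mitotic genes and for the 11 genes of replication and deoxynucleotide supply, with exact Poisson 95% intervals as error bars. CD1d-KO replicate 1 reaches 1419 for the mitotic genes, while the replication genes lie between 2673 and 3171 in every library.

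Among the proliferation markers, *Mki67* (ENSMUSG00000031004, chromosome 7, 135689784 to 135716361), which coats mitotic chromosomes and is made throughout the cycle, had 676, 1751, 898 and 1165 normalized counts in WT pMacs. In CD1d-KO pMacs it had 1154, 1587, 1202 and 896. The groups overlapped, WT replicate 2 was the highest library, and the change was 0.17 on the log2 scale (SE 0.18, edgeR adjusted p = 0.765), and -0.036 without replicate 1. *Top2a* (ENSMUSG00000020914, chromosome 11, 98992943 to 99024189), a topoisomerase that untangles chromosomes before they part, had 41.96, 120.4, 150.2 and 209.8 normalized counts in WT and 428, 106, 142 and 93.4 in CD1d-KO pMacs. Here CD1d-KO replicate 1 was highest and its partner WT replicate 1 lowest (log2FC 0.42 ± 0.65 SE, edgeR adjusted p = 0.852, and -0.48 without replicate 1).

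The balance of both markers differed between libraries of 1 genotype. The ratio of *Mki67* to *Top2a* in TPM was 8.26, 5.79, 1.81 and 1.49 in WT and 1.05, 4.76, 3.996 and 3.16 in CD1d-KO pMacs. The ratio thus varied widely among WT mice alone, and CD1d-KO replicate 1 lay below all of them.

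Genes of S phase entry were low and overlapped between the genotypes. *E2f1*, which switches on S phase genes, had 51.0, 53.7, 21.6 and 50.6 normalized counts in WT and 54.6, 41.2, 23.5 and 29.7 in CD1d-KO pMacs (log2FC -0.24 ± 0.24 SE, edgeR adjusted p = 0.756). The replicates numbered 3 were the lowest of both groups. *Ccne1*, encoding cyclin E1, the partner of CDK2 at the start of S phase, had 16.5, 24.7, 14.4 and 25.3 in WT and 28.8, 6.86, 21.1 and 20.9 in CD1d-KO pMacs (log2FC -0.09 ± 0.45 SE, edgeR adjusted p = 0.961). *Ccne2* ranged from 3.55 to 23.6 and *Cdk2* from 120.2 to 195 normalized counts over the 8 libraries. CD1d-KO replicate 1 was the highest library for 4 of these 4 genes, by at most 1.14-fold over the next.

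D-type cyclins, which link growth signals to the start of the cycle, varied more between replicate numbers than between the genotypes. *Ccnd1* had 50.6, 109, 129.7 and 82.4 normalized counts in WT and 52.5, 117, 112 and 109 in CD1d-KO pMacs (log2FC 0.08 ± 0.15 SE, edgeR adjusted p = 0.891). *Ccnd2* (ENSMUSG00000000184, chromosome 6, 127125162 to 127152193) had 286, 832, 1867 and 1177 in WT and 480.0, 640.3, 2211 and 1618 in CD1d-KO pMacs. Both replicates numbered 1 were low and both numbered 3 high, a range of several-fold within each genotype. The difference between the genotypes, higher in CD1d-KO in 3 of 4 pairs, was 0.27 on the log2 scale (SE 0.16, edgeR adjusted p = 0.553).

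*Ccnd3* was high in replicates numbered 1 and low in those numbered 3, where *Ccnd2* was low and high, while both were higher in replicates numbered 5 than in those numbered 2. It had 341, 201, 131 and 308 normalized counts in WT and 292, 159, 135 and 242 in CD1d-KO pMacs, lower in CD1d-KO in 3 of 4 pairs (log2FC -0.23 ± 0.10 SE, edgeR adjusted p = 0.418). In TPM the ratio of *Ccnd2* to *Ccnd3* was 0.30, 1.302, 3.45 and 1.23 in WT and 0.436, 1.14, 5.38 and 1.93 in CD1d-KO pMacs. *Ccnd3* was thus the more abundant of the pair in both replicates numbered 1, and *Ccnd2* in the other 6 libraries. CD1d-KO replicate 1 was the highest library for 0 of the 3 D-type cyclins.

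**Figure D4:**
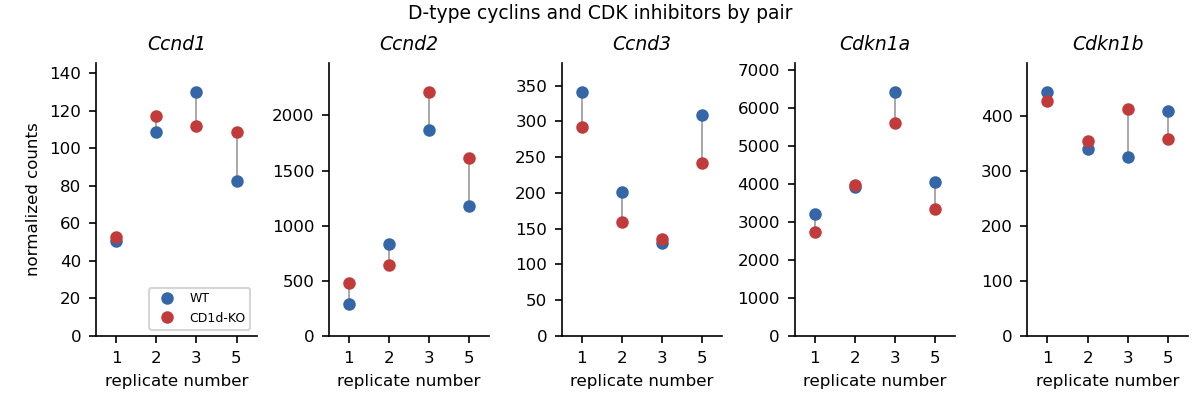
Normalized counts of the 3 D-type cyclins and the 2 CDK inhibitors, with WT in blue and CD1d-KO in red at each replicate number and a line joining each pair. *Ccnd2* goes from 286 and 480.0 in the pair numbered 1 to 1867 and 2211 in the pair numbered 3, so replicate number separates the points more than genotype does.

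The MCM helicase subunits, which are loaded on origins and unwind DNA in S phase, varied less than the mitotic genes. *Mcm2* had 62.2, 65.6, 66.1 and 98.03 normalized counts in WT and 111, 81.2, 70.5 and 97.8 in CD1d-KO pMacs (log2FC 0.32 ± 0.19 SE, edgeR adjusted p = 0.54, and 0.13 without replicate 1). For *Mcm5*, whose window with its E2F letters is shown above, the values were 64.4, 69.9, 78.1 and 100.1 in WT and 108, 76.6, 69.3 and 92.3 in CD1d-KO pMacs (log2FC 0.16 ± 0.19 SE, edgeR adjusted p = 0.797, and -0.053 without replicate 1). Both overlapped between the groups, with CD1d-KO replicate 1 at most 1.13-fold above the next library. *Mcm3*, *Mcm4*, *Mcm6* and *Mcm7* ranged over the libraries from 248 to 335, 147 to 224, 392 to 563 and 96.4 to 181 normalized counts, with log2 fold changes between -0.06 and 0.13.

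*Pcna* (chromosome 2, 132249162 to 132253314) was the gene of the set with the smallest p. It had 1572, 1496, 1705 and 1388 normalized counts in WT pMacs and 1236, 1517, 1272 and 1277 in CD1d-KO pMacs, or 1540.1 ± 133 and 1326 ± 129 (SD, n = 4 each). Of the CD1d-KO libraries, 3 of 4 lay below all WT libraries, and replicate 2 was the exception. The log2 fold change of -0.22 (standard error 0.09, unadjusted p = 0.0383) had an adjusted p of 0.37 in edgeR and of 0.164 to 1 over the alternatives. Without replicate 1 it was -0.17 (edgeR adjusted p = 0.678), and 0 genes of the set were then lower at an unadjusted p under 0.05. *Pcna* did not pass the threshold.

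Of the enzymes that supply deoxynucleotides, *Rrm2*, the cell cycle-regulated subunit of ribonucleotide reductase, had 5.25, 15.05, 28.8 and 24.2 normalized counts in WT and 59.1, 13.7, 15.3 and 14.3 in CD1d-KO pMacs. It followed the mitotic genes, with CD1d-KO replicate 1 at 2.05-fold the next library and WT replicate 1 lowest (log2FC 0.38 ± 0.72 SE, edgeR adjusted p = 0.889, and -0.62 without replicate 1). *Rrm1*, the other subunit, ranged from 131 to 231, thymidylate synthase *Tyms* from 21.7 to 45.1 and thymidine kinase *Tk1* from 59.5 to 123 normalized counts.

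The mitotic cyclins and their kinase showed the same pattern of CD1d-KO replicate 1. *Ccna2*, cyclin A2 of S and G2 phase, had 8.53, 23.8, 28.3 and 35.8 normalized counts in WT and 104, 24.6, 39.2 and 15.9 in CD1d-KO pMacs. *Ccnb1*, cyclin B1, had 3.75, 12.9, 40.9 and 28.5 in WT and 68.2, 24.02, 19.97 and 28.6 in CD1d-KO pMacs. *Cdk1*, the kinase that both activate, had 9.74, 20.4, 27.6 and 46.4 in WT and 66.7, 21.7, 15.3 and 18.7 in CD1d-KO pMacs. In each, WT replicate 1 was lowest and CD1d-KO replicate 1 highest, and the other 6 libraries overlapped. The log2 fold changes were 0.73, 0.82 and 0.18 (standard errors 0.70, 0.73 and 0.65, adjusted p = 0.738, 0.711 and 0.944 from edgeR), and without replicate 1 they were -0.20, -0.093 and -0.71. *Ccnb2* ranged from 5.72 to 45.5 normalized counts.

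Mitotic kinases and checkpoint genes exceeded 1.5 times the next library in CD1d-KO replicate 1 in 7 of 7. *Plk1*, a kinase that acts at mitotic entry and exit, had 7.49, 10.7, 10.8 and 28.1 normalized counts in WT and 61.1, 13.7, 25.3 and 11.7 in CD1d-KO pMacs (log2FC 0.90 ± 0.65 SE, edgeR adjusted p = 0.638, and 0.076 without replicate 1). *Birc5*, encoding survivin of the chromosomal passenger complex, was too low for the test, with 1.499, 6.45, 8.41 and 14.8 in WT and 22.7, 8.01, 4.70 and 12.1 in CD1d-KO pMacs. The checkpoint kinase *Bub1*, also untested, ranged from 2.25 to 14.8 in the other 7 libraries and reached 32.6 in CD1d-KO replicate 1. *Bub1b*, *Aurka*, *Aurkb* and *Cdca8* reached 87.2, 50.04, 39.4 and 41.7 there, against at most 54.8, 26.3, 20.03 and 25.2 in any other library.

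Motor proteins and kinetochore proteins of the spindle were highest in CD1d-KO replicate 1 in 7 of 7. *Cenpf*, a kinetochore protein made in G2 and mitosis, ranged from 9.74 to 30.8 normalized counts in the other 7 libraries and was 97.8 in that library. It had the highest log2 fold change of the set, 1.08 (standard error 0.56, adjusted p = 0.479 from edgeR), which was 0.29 without replicate 1, and was higher in CD1d-KO in 4 of 4 pairs. The spindle motor *Kif11* reached 103 against at most 51.7 elsewhere, the cytokinesis motor *Kif20a* 90.8 against 36.6, and the spindle assembly factor *Tpx2* 87.9 against 59.9. *Nusap1*, *Cenpa* and *Cenpe* exceeded the next library by less, 1.49-, 1.37- and 1.29-fold.

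The anaphase-promoting complex, which marks cyclin B and securin for destruction, was represented by its activator *Cdc20* and its E2 enzyme *Ube2c*. *Cdc20* had 8.24, 17.2, 27.6 and 20.998 normalized counts in WT and 47.8, 12.6, 24.6 and 22.96 in CD1d-KO pMacs (log2FC 0.54 ± 0.51 SE, edgeR adjusted p = 0.734, and -0.14 without replicate 1). *Ube2c* had 2.997, 19.3, 43.3 and 31.6 in WT and 86.4, 24.02, 7.05 and 23.1 in CD1d-KO pMacs (log2FC 0.39 ± 0.96 SE, edgeR adjusted p = 0.92, and -0.79 without replicate 1). In both, CD1d-KO replicate 1 was highest, WT replicate 1 was lowest, and the genotypes overlapped.

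**Figure D5:**
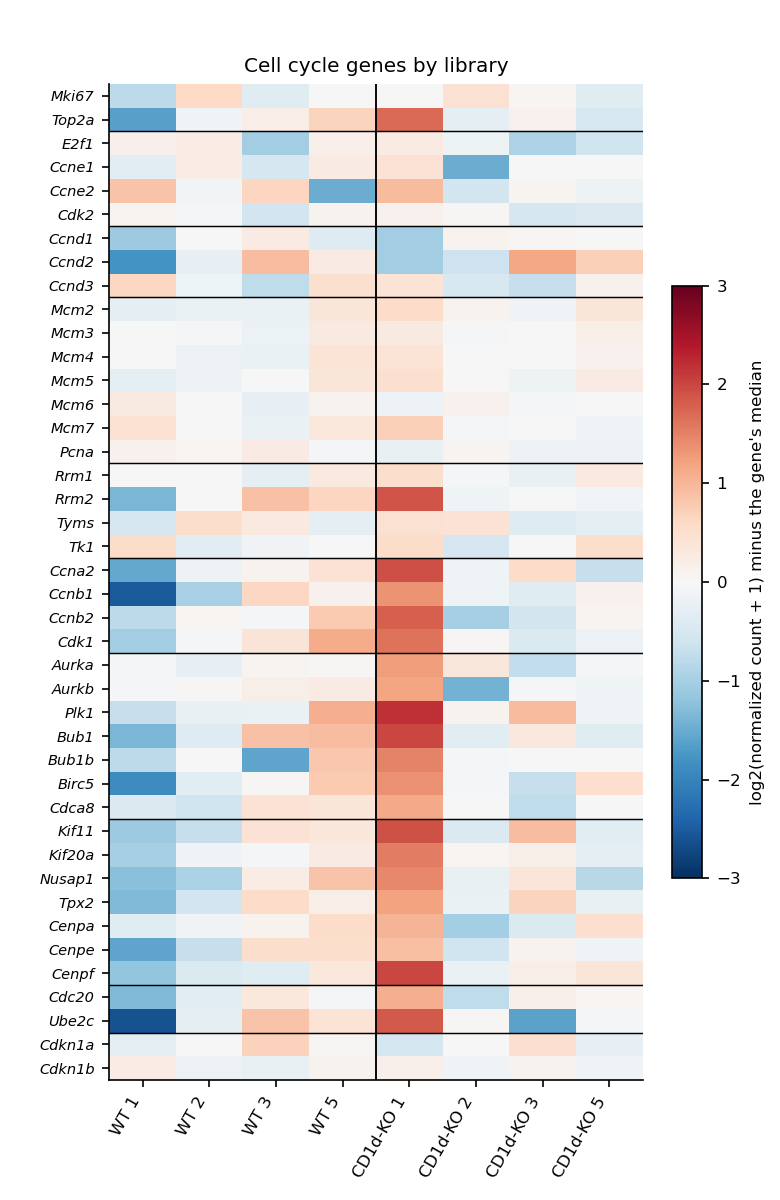
Log2(normalized count + 1) of each gene minus its median over the 8 libraries, with genes grouped by role (lines) and WT left of CD1d-KO. The column of CD1d-KO replicate 1 is red over the mitotic block (20 of 20 genes highest there), while the MCM genes, *Pcna* and the CDK inhibitors are pale. *Rrm2* is red in that column like the mitotic genes.

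The CDK inhibitors, which hold cells out of the cycle, did not share the pattern. *Cdkn1a* (chromosome 17, 29090976 to 29100727) had 3203, 3932, 6411 and 4043 normalized counts in WT and 2726, 3979, 5604 and 3341 in CD1d-KO pMacs. Replicates numbered 3 were the highest in both groups and CD1d-KO replicate 1 the lowest of all, and CD1d-KO was lower in 3 of 4 pairs (log2FC -0.17 ± 0.08 SE, edgeR adjusted p = 0.414). *Cdkn1b*, encoding p27, had 443, 339.6, 326 and 409 in WT and 426, 353, 412 and 357 in CD1d-KO pMacs (log2FC 0.03 ± 0.10 SE, edgeR adjusted p = 0.935). Even in CD1d-KO replicate 1 the highest mitotic gene, *Ube2c*, stood at 11.04 TPM beside 172 TPM of *Cdkn1a*.

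Other genes of the cycle were read in lists of their own. Of 61 other G2 and M phase genes, untested ones included, CD1d-KO replicate 1 was the highest library in 50 and exceeded 1.5 times the next in 30. Among the 43 tested it exceeded 1.5 times the next in 20. Over all tested genes it was the highest in 12.0% and exceeded 1.5 times the next in 0.836%. Of the 43 tested, 2 were higher (*Pttg1* and *Nek2*), 1 was lower (*Tubb5*) at an unadjusted p under 0.05, and 0 were called, where 7.35% of all tested genes were higher and 5.01% lower at that p. Their median log2 fold change of 0.20 became -0.26 without replicate 1. Of 51 other S phase genes the library was highest in 18, and of the 41 tested 3 were higher (*Rfc2* and *Clspn* among them) and 1 lower (*Nasp*). Of 35 regulators of the cycle it was highest in 10, and 1 of the 32 tested (*Rbl1*) was higher and 0 lower. In these lists the shares at an unadjusted p under 0.05 in edgeR thus lay near or below those of all genes. The share of genes highest in CD1d-KO replicate 1, untested genes included, lay above the 12.0% of all tested genes in each list.

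*Pttg1*, the securin that holds sister chromatids together, had 169, 343, 406 and 289 normalized counts in WT and 241, 359, 505 and 375 in CD1d-KO pMacs, higher in 4 of 4 pairs (log2FC 0.31 ± 0.09 SE, edgeR adjusted p = 0.229). Unlike the mitotic genes of the set, it was not highest in CD1d-KO replicate 1. *Nasp*, a histone chaperone, had 736, 712, 898 and 761 in WT and 613, 681, 599 and 536 in CD1d-KO pMacs, with all CD1d-KO libraries below all WT libraries, as for 0.905% of all tested genes (log2FC -0.35 ± 0.10 SE, edgeR adjusted p = 0.199). *Tubb5*, a beta-tubulin, was lower in 4 of 4 pairs by 0.22 on the log2 scale (standard error 0.09, adjusted p = 0.359 from edgeR).

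Of 15 targets of p53 other than *Cdkn1a*, 12 were tested, of which 2 were higher (*Sesn2* and *Mdm2*) and 1 lower (*Ccng1*) at an unadjusted p under 0.05, beside 7.35% and 5.01% of all tested genes. *Sesn2*, a stress-induced inhibitor of mTORC1 signalling, had 465, 569.6, 1395 and 478 normalized counts in WT and 790.0, 1091, 1871 and 686 in CD1d-KO pMacs. It was higher in 4 of 4 pairs (log2 fold change 0.66, standard error 0.10), with an adjusted p of 0.0435 in edgeR, short of the threshold of 0.01, and of 3.88e-05 in DESeq2, where it was called. Its adjusted p reached 1 in an alternative, and without replicate 1 it was 0.154. *Ccng1*, cyclin G1, had 1083, 1001, 858 and 976 in WT and 1022, 815, 693 and 845 in CD1d-KO pMacs (log2FC -0.22 ± 0.07 SE, edgeR adjusted p = 0.233). CD1d-KO replicate 1 was the highest library for 0 of the 15.

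Of 12 regulators of macrophage self-renewal and its growth factor axis, 11 were tested. In edgeR 1 of them (*Maf*) was higher and 0 were lower at an unadjusted p under 0.05. Of all tested genes 7.35% were higher and 5.01% lower at that p. The product of *Maf*, c-MAF, is known to restrain self-renewal of macrophages. *Maf* had 193, 702, 670.4 and 374 normalized counts in WT and 315, 719, 775 and 636 in CD1d-KO pMacs, higher in 4 of 4 pairs (log2FC 0.42 ± 0.13 SE, edgeR adjusted p = 0.246).

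Markers of other cells of the cavity were summed per library. The 10 B cell markers gave 7769, 3208, 6807 and 8918 normalized counts in WT and 9753, 2041, 5993 and 14700.4 in CD1d-KO pMacs, so B cell transcripts were present and varied. Among the 8 libraries CD1d-KO replicate 1 ranked second and CD1d-KO replicate 5 first, and the latter had 484 summed mitotic counts. Of the 10 B cell markers 0 were at 0 in all libraries. The 10 markers of T and NK cells gave 224.8 to 352 in WT and 199.7 to 466 in CD1d-KO pMacs, and those of mast cells 74.9 to 213 and 47.3 to 153. Neutrophil markers gave 57.7 to 97.8 and 85.8 to 116, eosinophil markers 53.8 to 82.7 and 34.1 to 81.3, and mesothelial markers at most 3.30 in any library. Markers of small peritoneal macrophages, monocytes and dendritic cells gave 1135 to 2063 and 889.5 to 2467. The 9 markers of large peritoneal macrophages gave 121278 to 134558 in WT and 132876 to 156484 in CD1d-KO pMacs. The 5 markers of macrophages in general gave 331045 to 371126 in WT and 272235 to 349530 in CD1d-KO pMacs. In edgeR, 3 of the 9 were higher and 0 lower at an unadjusted p under 0.05. The shares of all tested genes at that p were 7.35% higher and 5.01% lower. Of 2 tested neutrophil markers, 1 was higher and 1 lower. Of 5 tested markers of small peritoneal macrophages, monocytes and dendritic cells, 0 were higher and 1 was lower. Each other list, macrophages in general included, had 0 higher and 0 lower, and 0 mesothelial markers were tested. CD1d-KO replicate 1 was not the highest library for the sum of any of these lists. Their part in the mitotic transcripts was not tested.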

How the data were processed

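RNA of peritoneal lavage macrophages, 4 mice per genotype, was made into libraries with a poly(A) kit and sequenced as single-end reads of 75 bases. The authors trimmed reads with Cutadapt, aligned them with STAR 2.5.2a to GRCm38 (Ensembl release 86) and deposited expected counts and TPM per gene from RSEM 1.3.0. RSEM shares reads between genes that match them equally, and 13 of the 42 genes had a count that was not whole in at least 1 library, 5 of them (*Ccne2*, *Ccnd1*, *Ccnd3*, *Ccna2* and *Kif20a*) in all 8. The strand setting is not given in the sources used here.

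Expected counts were rounded, scaled by TMM and tested in edgeR 4.0.16 (R 4.3.3) with the quasi-likelihood test, on the 13040 genes kept by filterByExpr. The model held replicate number and genotype, as the study's model did. P-values were adjusted by Benjamini-Hochberg over all tested genes, and the call needed an adjusted p under 0.01 with a fold above 1.5. Normalized counts are expected counts scaled to the mean effective library size. Fold changes are CD1d-KO over WT. Levels of different genes were compared in the deposited TPM, which is per length. DESeq2 1.42.0, limma 3.58.1 on log2(TPM + 1), other scalings and filters, and fits that left out libraries were the alternatives. The edgeR step was tested on simulated data. Log2 ratios within pairs used a pseudocount of 1.

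Same-numbered libraries deviated together from their group means (correlations 0.487, 0.387, 0.505 and 0.207), so the numbers were taken to pair the mice, although for replicate 5 another number correlated as well (0.220). P-values of the reported fit measure the spread of the genotype difference between pairs of mice in this single experiment. In fits without the block they measure the spread between mice of a genotype. The genes of the set and all lists were chosen with earlier results of these data known. Genes given in every library are the markers, cyclins, replication and mitosis genes named by a rule and any gene of the set at an unadjusted p under 0.05, and from the other lists up to 4 per direction with the smallest p, of which 1 is not reported here. *Adgre1*, *Gata6*, *Nek2*, *Rfc2*, *Clspn*, *Rbl1* and *Mdm2* fall outside that rule and were named after their values were seen. Gene positions are from GENCODE M21, which held 99.26% of the gene IDs. Promoter windows are from RefSeq; *Ccnd1*, *Kif20a*, *Ccna2*, *Ccnd2*, *Mcm4*, *Tpx2*, *Aurkb* and *Ccne2* had none matched. A planned comparison of protein sequences was not run.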

Additional observations from a re-analysis of the deposited data

Results flagged for a closer look

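A library was marked where it stood apart within its group of 4, by the gap to its nearest neighbour divided by the range of the group, against Dixon's 95% limit for 4 values. Chance marks about 1 in 20 groups. For the 42 genes, 84 groups were examined and 13 were marked, 8 of them with CD1d-KO replicate 1 as the highest library.

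CD1d-KO replicate 1 stood above the other CD1d-KO libraries in *Top2a* (ratio 0.854), *Mcm7* (0.857), *Rrm2* (0.966), *Cdk1* (0.874), *Bub1* (0.856), *Bub1b* (0.982), *Kif20a* (0.856), *Cenpf* (0.868) and in the sum of the 20 mitotic genes (0.882). The same library stood above them in *Cd1d1* (0.981), the deleted gene, and below them in *Ccnd1* (0.87). Elsewhere WT replicate 3 was low in *E2f1* (0.904), WT replicate 5 was high in *Mcm2* (0.891) and *Plk1* (0.839), and CD1d-KO replicate 2 was high in *Pcna* (0.852). The causes of these departures were not tested.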

How the results depend on the processing

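None of the 42 genes was called by edgeR, DESeq2 or limma in any of the 19 alternatives of the fit. The count over all genes, 5 in the reported fit, was 106 in DESeq2, 3 in limma, 236 without a count filter, 53 at an adjusted p under 0.05 with no fold threshold, 3 without the replicate block and 3 to 22 with replicates or libraries left out. At an unadjusted p under 0.05, genes of the set that were higher numbered 3 without a filter (*Ccnd2*, *Kif11* and *Cenpf*), 1 without the replicate block (*Cenpf*) and 0 to 3 with libraries left out. Lower genes numbered 3 with upper quartile scaling (*Pcna*, *Cdkn1a* and *Ccnd3*), 2 without a filter, 0 without the replicate block and 0 to 2 with libraries left out. The replicate block changed no other call of the set. Fits that left out a single library had no block. The median log2 fold change of the set ran from -0.094 to 0.41 with libraries left out, and fell below 0 without replicate 1 (-0.094) and without CD1d-KO replicate 1 alone (-0.026). That of the mitotic genes ran from -0.17, without replicate 1, to 0.89. Under limma the signs of replication licensing (median -0.027), *Cdk1* (-0.14) and *Ccne1* (0.035) turned. With libraries left out, medians ran from -0.26 to 0.67 for the proliferation markers, -0.38 to 0.036 for S phase entry, -0.089 to 0.28 for the D-type cyclins, -0.13 to 0.26 for deoxynucleotide supply, -0.46 to 0.95 for the mitotic cyclins and CDK1, -0.079 to 0.83 for mitotic kinases, -0.022 to 1.07 for the spindle, -0.47 to 1.03 for the anaphase-promoting complex and -0.20 to 0.023 for the CDK inhibitors. Single genes ran from -0.073 to 0.41 (*Mki67*), -0.48 to 1.002 (*Top2a*), -0.20 to 1.38 (*Ccna2*), -0.093 to 1.52 (*Ccnb1*), -0.71 to 0.74 (*Cdk1*), -0.14 to 0.28 (*Ccnd1*), -0.19 to 0.70 (*Ccnd2*), -0.45 to 0.37 (*Ccne1*), -0.053 to 0.29 (*Mcm5*), -0.62 to 0.86 (*Rrm2*), -0.14 to 0.85 (*Cdc20*), -0.79 to 1.28 (*Ube2c*), -0.40 to 0.077 (*Cdkn1a*) and -0.064 to 0.11 (*Cdkn1b*). Genes that kept their sign ran from 0.076 to 1.66 (*Plk1*), 0.13 to 0.48 (*Mcm2*), -0.50 to -0.063 (*E2f1*), -0.46 to -0.042 (*Ccnd3*), -0.29 to -0.15 (*Pcna*), 0.067 to 0.57 (*Maf*), 0.094 to 0.48 (*Pttg1*), 0.23 to 1.15 (*Sesn2*), -0.44 to -0.27 (*Nasp*), -0.32 to -0.13 (*Ccng1*) and -0.33 to -0.062 (*Tubb5*). In TPM, CD1d-KO replicate 1 was the highest library for 30 of the 42 and 19 of the 20 mitotic genes, and with DESeq2 size factors for 31 and 20. Each mitotic gene had under 100 counts in the 7 libraries other than CD1d-KO replicate 1, so counting error alone is large for single genes there. In CD1d-KO replicate 1 their counts ran from 30 (*Birc5*) to 145 (*Cenpa*).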

Other observations

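Replication-dependent histone genes, which supply histones to newly copied DNA, were looked at after the levels of the mitotic genes had been seen. Of 65 such genes 56 were tested. CD1d-KO replicate 1 was the highest library in 42 of the 56, against 12.0% of all tested genes. The summed normalized counts of the 56 were 5151, 7251, 7584 and 8841 in WT replicates 1, 2, 3 and 5. In the CD1d-KO libraries of the same numbers they were 11560.5, 6397, 7288 and 7011. WT replicate 1 was the lowest and CD1d-KO replicate 1 the highest, as for the mitotic genes. Most histone transcripts lack a poly(A) tail, so a poly(A) kit catches only a part of them. At an unadjusted p under 0.05, 1 of the 56 tested was higher and 0 were lower in edgeR. Over all tested genes 7.35% were higher and 5.01% lower.

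Of the 109 tested genes in which CD1d-KO replicate 1 exceeded 1.5 times the next library, 15 belonged to the 42 genes (37.5% of the 40 tested), 20 to the other G2 and M phase genes (46.5% of 43), 17 to the histone genes (30.4% of 56) and 2 to the other S phase genes (4.88% of 41). All lists of the cycle and the histone genes together held 212 of the 13040 tested genes and 56 of the 109 (51.4%). The library and the histone list were picked after values had been seen, so these counts are descriptive and are no test.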
